A study of Homo sapiens with 9 samples.

Results

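Secreted proteases and the proteins that inhibit them were followed in spinal cord organoids (SCOs) exposed to valproic acid (VPA), an anti-seizure drug that also inhibits histone deacetylases, with or without the mTOR inhibitor Rapamycin. The set was defined by gene name among protein-coding genes and took in the matrix metalloproteinases (MMP genes), the tissue inhibitors of metalloproteinases (TIMP1 to TIMP4), the ADAMTS proteases with the related ADAMTSL proteins, the serpins, the plasminogen activators PLAT and PLAU, the receptor PLAUR, and PRSS35. It held 67 of 17226 protein-coding genes in the count tables. There were 19 ADAMTS genes, 5 ADAMTSL genes, 13 MMP genes, 4 TIMP genes, 21 serpins, the 3 genes of the plasminogen activator system and PRSS35. The name rule also took in MMP24OS, a protein-coding gene on the opposite strand of MMP24 that encodes no metalloproteinase.

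Many of these proteins remodel the extracellular matrix. MMPs cleave collagens, laminins and many cell surface proteins, and TIMPs block them by binding the zinc of the active site. ADAMTS enzymes cut the hyaluronan-binding proteoglycans of neural matrix and trim procollagens, while ADAMTSL proteins share their matrix-binding domains but have no protease domain. PLAT and PLAU turn plasminogen into plasmin, and most serpins inhibit serine proteases by a suicide reaction, although a few have no inhibitory function. Neural crest cells, which leave the dorsal neural tube and migrate through matrix, are known to use several of these enzymes, and many of the genes belong to the secreted factors of senescent cells that the study asked about.

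Poly-A RNA of whole SCOs was sequenced in 9 libraries, 3 for each of 3 conditions. The labels give the conditions as vehicle (titled FGF), VPA and VPA+Rapamycin, each applied for 96 h (the study's text gives a shorter exposure of its reporter organoids), and all were derived from WTC, an established human induced pluripotent stem cell line, with the genotype given as WT. The study's methods describe organoids from clones of this line that carry a fluorescent reporter and recombinase cassette in SOX10. In the study's account the vehicle is FGF alone, and VPA was given together with FGF. Its text states that organoids of 3 clones were sequenced, with several organoids of a clone pooled for RNA. In its heatmap of these data each column stands for a clone. The replicates of a condition may therefore be different clones, although the labels do not tie a replicate number to a clone or to a separate culture. The p-values measure the spread between these libraries, which may include differences between clones and may be partly technical. The main fits took no account of the clone, and fits with the replicate number as a block are given at the end. SCOs hold a mixture of cells, and in bulk RNA fewer cells of a type and less RNA per cell cannot be told apart.

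The libraries held 15290325 to 17417368 counts over genes. Neural progenitor markers (6 of 6 genes) and neuronal markers (7 of 7) were above 3 counts in every library, whereas no immune cell or microglia marker was, and that list summed to 0.188 to 0.893 CPM (counts scaled to library size). A list of 12 mesenchymal and fibroblast-like markers summed to 181 to 355 CPM in vehicle, 636 to 789 CPM under VPA and 309 to 428 CPM under VPA + Rapamycin. Most of this came from collagen I genes. By the test described below, 3 of the 11 markers tested rose under VPA and 0 fell, beside 16.4% and 15.7% of all genes tested. Their median log2 fold change was 0.41. DCN was at 0 in vehicle libraries 1 and 2 with 97 counts in vehicle library 3, and PRRX1 was at 0, 0 and 53 counts in the same libraries, so the vehicle libraries differed in these genes. The neuronal list summed to 1289 to 2210 CPM in vehicle, 1095 to 1179 CPM under VPA and 1187 to 1229 CPM under VPA + Rapamycin. The part that these shifts have in the results was not tested.

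Of the 67 members, 53 had enough counts to be tested in at least 1 comparison and 50 were tested in all 3. The other 14 never exceeded 21 counts in a library: ADAMTS18, ADAMTSL5, MMP9, MMP19, MMP21, MMP28, SERPINA1, SERPINA11, SERPINA12, SERPINB13, SERPINC1, SERPIND1, SERPINE3 and SERPINI2. The gelatinase MMP9, a familiar product of inflamed tissue, had 6, 7 and 2 counts in vehicle, 6, 3 and 0 under VPA and 4, 5 and 1 under VPA + Rapamycin. None of these 14 passed the count filter, so their changes were not tested.

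Levels of different genes were compared as RPKM, reads scaled to gene length in kilobases and to library size, computed here from the counts and gene lengths. The most abundant member in vehicle was SERPINH1, a collagen chaperone with no inhibitory function, at 37.7 ± 10.8 RPKM (SD, n = 3). SERPING1, the inhibitor of complement protease C1, followed at 23.0 ± 1.30 RPKM, then TIMP3 at 22.5 ± 1.44, TIMP1 at 21.1 ± 3.29 and TIMP2 at 20.0 ± 3.56. These 4 neighbours lay within each other's spread. Among the proteases, ADAMTS7 (14.2 ± 3.24 RPKM), which is named here for its level, and MMP2 (14.1 ± 5.88 RPKM) did not differ beyond their spread, and MMP15 (9.38 ± 2.23) and MMP14 (8.55 ± 1.51) came next. In all, 31 members reached 1 RPKM in vehicle, 33 under VPA and 33 under VPA + Rapamycin, and 32 were below 1 RPKM in every condition. By their means the proteases began below the leading serpins and TIMP1 to TIMP3, although MMP2 and ADAMTS7 in vehicle library 1 exceeded TIMP2 there.

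**Figure D1:**
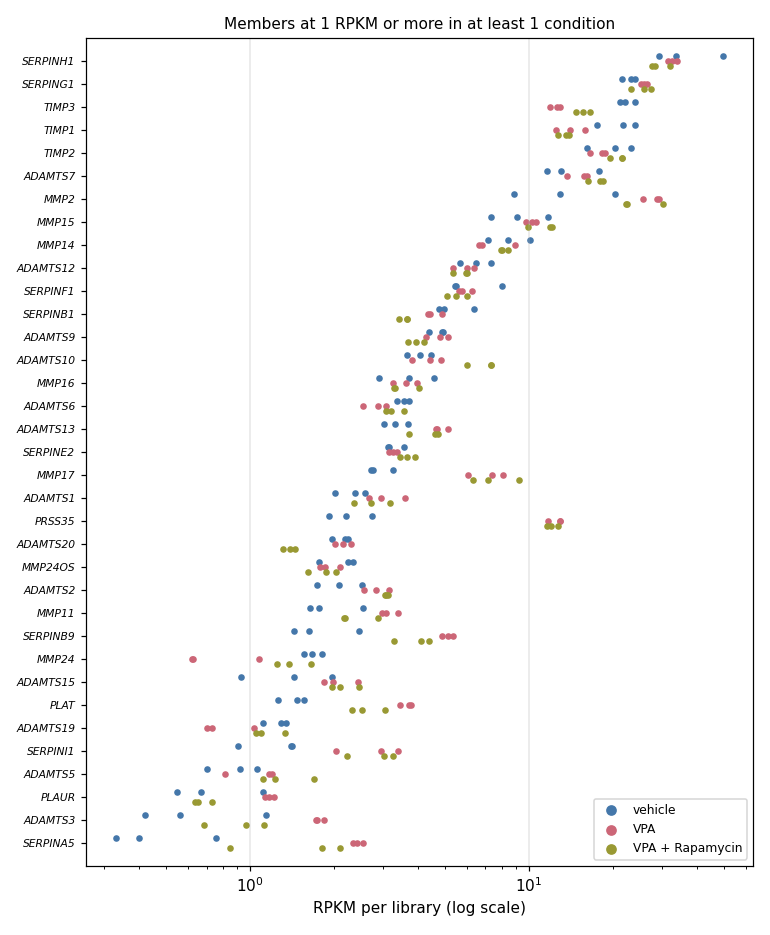
RPKM on a log scale in each of the 9 libraries for the members that reached 1 RPKM in at least 1 condition, ordered by their vehicle mean and coloured by condition. SERPINH1, SERPING1 and 3 TIMP genes head the order, and PRSS35 shows the widest step between the vehicle points and the others, from 2.29 RPKM in vehicle to 12.5 RPKM in VPA.

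The first comparison asked which members changed when SCOs were exposed to VPA. Of 51 members tested, 11 rose and 4 fell (edgeR quasi-likelihood test, Benjamini-Hochberg adjusted p at most 0.05 over all genes). The share called, 29.4%, was close to the 32.1% called among all 17360 genes tested, of which 16.4% rose and 15.7% fell, so the members as a group were not called more often than other genes. Their median log2 fold change was 0.17, against -0.00 over all genes tested. The members that rose were PRSS35, the activator PLAT, 3 MMP genes, 3 ADAMTS genes and 3 serpins, and those that fell were TIMP1, TIMP3, MMP24 and ADAMTSL1. Without vehicle library 2 the count lowered was 2, and without vehicle library 3 it was 7. Normalized counts of vehicle and VPA did not overlap for 23 members, where 47.5% of all genes tested showed no overlap. With 3 libraries against 3, an exact two-sided permutation test of a single gene cannot go below p = 0.1.

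PRSS35, a secreted trypsin-like protein annotated as an inactive protease, had the smallest p among the members. It lies on chromosome 6 (GRCh38, 83512538 to 83525704, plus strand). It had 79, 82 and 107 counts in vehicle, 480, 514 and 558 under VPA and 478, 507 and 494 under VPA + Rapamycin. Every exposed library held over 4 times the count of any vehicle library. PRSS35 rose by 2.45 on the log2 scale under VPA (SE 0.17, adjusted p = 8.08e-06), a 5.47-fold difference, and ranked 23 by p among all genes. The difference between VPA + Rapamycin and VPA was -0.05 (SE 0.10, adjusted p = 0.843), and VPA + Rapamycin stood 2.40 above vehicle (SE 0.17, adjusted p = 4.49e-05).

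Among the metalloproteinases, MMP2, MMP17 and MMP11 rose under VPA and MMP24 fell, while 5 of the 9 tested were not called. MMP2 encodes gelatinase A, which degrades collagen IV and is the most abundant protease transcript of this family here. It had 1703, 967 and 699 counts in vehicle, 2440, 2317 and 2243 under VPA and 2521, 1894 and 1767 under VPA + Rapamycin. The vehicle libraries were widely spread, yet the highest stayed below every VPA library. MMP2 rose by 0.99 (SE 0.23, adjusted p = 0.00742), from 14.1 ± 5.88 to 28.0 ± 1.96 RPKM. MMP17 encodes a membrane-type enzyme held by a glycolipid anchor. It had 187, 165 and 209 counts in vehicle, 497, 395 and 572 under VPA and 425, 634 and 457 under VPA + Rapamycin. All exposed libraries were above all vehicle libraries, and the log2 fold change was 1.30 (SE 0.16, adjusted p = 0.000207). MMP11, a stromelysin expressed by stromal cells, had 223, 129 and 146 counts in vehicle, 259, 259 and 309 under VPA and 191, 257 and 180 under VPA + Rapamycin. Its log2 fold change of 0.66 (adjusted p = 0.0214) was no longer called without vehicle library 2 (adjusted p = 0.0886), VPA library 1 (0.0522), VPA library 2 (0.0638) or VPA library 3 (0.0864). Its exons share 4.21% of their bases with CHCHD10 on the other strand, and the strand setting of the counting is not given in the sources used here.

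MMP24, a membrane-type enzyme found mainly in the nervous system, went the other way. It had 135, 105 and 118 counts in vehicle, 46, 45 and 84 under VPA and 103, 126 and 88 under VPA + Rapamycin. The VPA libraries were the lowest, and VPA + Rapamycin overlapped with vehicle. MMP24 fell by 1.11 on the log2 scale under VPA (SE 0.26, adjusted p = 0.00858). MMP24 shares 18.1% of its exon bases with MMP24OS on the opposite strand, and MMP24OS had a difference of -0.14 (SE 0.18, adjusted p = 0.570) in the same comparison. The membrane-type enzymes MMP14, the main activator of the MMP2 proenzyme, MMP15 and MMP16 were not called. MMP14 had 763, 483 and 598 counts in vehicle, 497, 648 and 535 under VPA and 603, 646 and 566 under VPA + Rapamycin, and its difference under VPA was -0.20 (SE 0.16). MMP15 differed by 0.13 (SE 0.16) and MMP16 by -0.04 (SE 0.16). The MMP15 estimate became a call without vehicle library 3, at a log2 fold change of 0.33 (adjusted p = 0.0488).

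Of the 4 TIMP genes, 2 fell under VPA and none rose. TIMP3 encodes the inhibitor that binds to matrix and also blocks several ADAM and ADAMTS enzymes. It lies on chromosome 22 (32801701 to 32863043, plus strand). It had 1865, 1552 and 1555 counts in vehicle, 922, 948 and 1047 under VPA and 1215, 1170 and 1213 under VPA + Rapamycin. The 3 conditions did not overlap, with vehicle highest and VPA lowest. TIMP3 fell by 0.85 under VPA (SE 0.10, adjusted p = 0.000222), a call kept under all 11 alternative settings. TIMP1, a soluble inhibitor of most MMPs, had 624, 509 and 431 counts in vehicle, 413, 354 and 341 under VPA and 352, 369 and 312 under VPA + Rapamycin. It fell by 0.57 (SE 0.15, adjusted p = 0.0155). Without vehicle library 2, VPA library 2 or VPA library 3 the TIMP1 call was lost (adjusted p = 0.0589, 0.0647 and 0.0827). TIMP2, which also takes part in MMP2 activation, had 1541, 1747 and 2092 counts in vehicle, 1576, 1686 and 1869 under VPA and 1865, 2102 and 1935 under VPA + Rapamycin, with a difference of -0.15 (SE 0.13, adjusted p = 0.410) that became a call without vehicle library 1 (-0.28, adjusted p = 0.0444). TIMP4 was scarce, at 12 to 25 counts in every library, and shares 10.3% of its exon bases with the more highly counted SYN2 on the other strand.

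**Figure D2:**
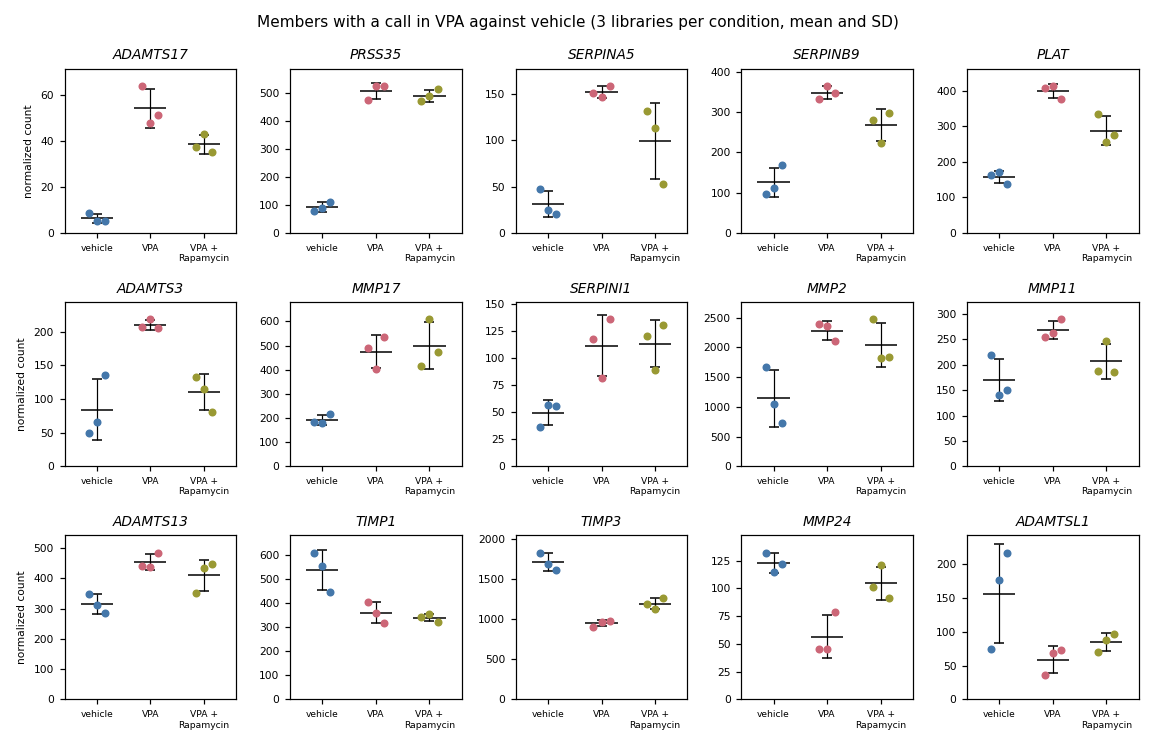
Normalized counts (raw counts scaled to the mean effective library size, linear axis from 0) of the 15 members called in VPA against vehicle, in each library of the 3 conditions, with the mean and SD of 3 libraries as bars. Vehicle and VPA points do not overlap in any panel, and TIMP1, TIMP3, MMP24 and ADAMTSL1 are the 4 that fell.

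Levels of inhibitor and protease transcripts were also summed over genes. The 4 TIMP genes together stood at 64.7, 65.2 and 62.6 RPKM in the vehicle libraries, 45.2, 46.0 and 45.1 RPKM in VPA and 49.4, 50.9 and 51.5 RPKM in VPA + Rapamycin. The 13 MMP genes together stood at 49.3, 39.7 and 40.6 RPKM in vehicle, 61.6, 62.3 and 60.0 RPKM in VPA and 62.0, 60.4 and 57.5 RPKM in VPA + Rapamycin. The TIMP sum exceeded the MMP sum in every vehicle library and was below it in every exposed library. The ratio of the sums was 1.31, 1.64 and 1.54 in vehicle, 0.734, 0.739 and 0.753 in VPA and 0.797, 0.843 and 0.896 in VPA + Rapamycin. Most of the difference in the MMP sum came from MMP2 (14.1 ± 5.88 RPKM in vehicle and 28.0 ± 1.96 RPKM in VPA) and the next part from MMP17 (2.92 ± 0.307 and 7.19 ± 1.04 RPKM). These sums were formed after the values were known and were not tested. TIMP2 supplied 31.2% ± 6.06 of the TIMP sum in vehicle and 39.5% ± 2.47 in VPA (SD, n = 3).

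**Figure D3:**
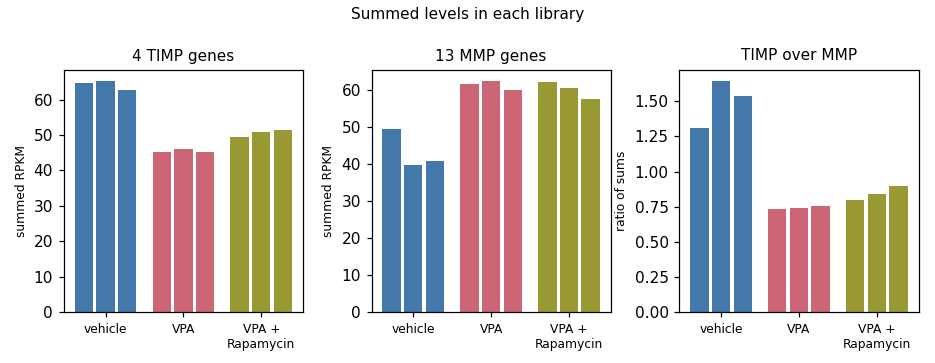
Summed RPKM of the 4 TIMP genes and of the 13 MMP genes and the ratio of the sums, with 1 bar per library from 0 and coloured by condition. The ratio is above 1.3 in the 3 vehicle libraries and between 0.734 and 0.896 in the 6 exposed libraries.

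The ADAMTS genes that rose under VPA were ADAMTS17, ADAMTS3 and ADAMTS13, and the other 15 of 18 tested were not called. ADAMTS17, linked to fibrillin microfibrils, was nearly absent from vehicle. It had 9, 5 and 5 counts in vehicle, 65, 47 and 55 under VPA and 38, 45 and 34 under VPA + Rapamycin. The lowest VPA library had over 5 times the highest vehicle library. Its log2 fold change was 3.04 (SE 0.40, adjusted p = 0.000332), the largest rise among the members called, although at 0.400 ± 0.0622 RPKM in VPA it remained a rare transcript. ADAMTS3, which removes the N-terminal propeptide of fibrillar procollagens, had 51, 61 and 131 counts in vehicle, 210, 215 and 219 under VPA and 136, 120 and 78 under VPA + Rapamycin. It rose by 1.32 (SE 0.31, adjusted p = 0.00749). ADAMTS13, best known as the enzyme that cleaves von Willebrand factor, had 356, 287 and 275 counts in vehicle, 448, 432 and 518 under VPA and 359, 452 and 431 under VPA + Rapamycin. Its rise of 0.53 (adjusted p = 0.0122) was lost without VPA library 3 (adjusted p = 0.0622). ADAMTS2, another procollagen N-proteinase, stood at 0.43 (SE 0.16, adjusted p = 0.0626) and was called without vehicle library 1 (0.58, adjusted p = 0.0107). It was also called in the fit of all 9 libraries (adjusted p = 0.0306) and without the filter on low counts (0.0475). The proteoglycan-cutting enzymes ADAMTS1, ADAMTS4, ADAMTS5 and ADAMTS9 were not called, with log2 fold changes of 0.40, 0.10, 0.25 and 0.01. They are named here for their substrates, outside the rule for named members.

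ADAMTSL1, which has no protease domain, had 76, 162 and 209 counts in vehicle, 36, 67 and 78 under VPA and 71, 92 and 93 under VPA + Rapamycin. It fell by 1.40 under VPA (SE 0.38, adjusted p = 0.0171), although the raw count of vehicle library 1 lay below that of the highest VPA library and only the normalized counts did not overlap. The call was lost without vehicle library 2 (adjusted p = 0.0616) or VPA library 1 (0.0717).

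In the plasminogen activator system, PLAT rose and PLAU was not called. PLAT encodes tissue plasminogen activator, which in the nervous system also acts on matrix and receptors at synapses, and lies on chromosome 8 (42175233 to 42207724, minus strand). It had 165, 157 and 133 counts in vehicle, 414, 406 and 402 under VPA and 340, 265 and 266 under VPA + Rapamycin. Vehicle was lowest, VPA highest and VPA + Rapamycin between them, with no overlap between any of the conditions. PLAT rose by 1.35 under VPA (SE 0.15, adjusted p = 0.000127), a 2.54-fold difference. PLAU, the urokinase, had 33, 13 and 23 counts in vehicle, 31, 17 and 39 under VPA and 20, 30 and 23 under VPA + Rapamycin, and its difference was 0.26 (SE 0.43, adjusted p = 0.682). It shares 31.1% of its exon bases with C10orf55 on the other strand, a gene that is not in the count tables. Without the strand setting it cannot be told whether reads from C10orf55 entered the PLAU counts. PLAUR, the urokinase receptor, had 84, 45 and 39 counts in vehicle, 88, 82 and 96 under VPA and 55, 50 and 45 under VPA + Rapamycin. Vehicle library 1 lay near the VPA libraries and the other vehicle libraries well below them. The difference of 0.59 (SE 0.29, adjusted p = 0.141) was not called with all libraries and was called without vehicle library 1 (0.96, adjusted p = 0.0158).

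The serpins that rose under VPA were SERPINA5, SERPINB9 and SERPINI1, of 12 tested, and no serpin fell. SERPINA5, the protein C inhibitor, which also blocks urokinase, had 48, 23 and 20 counts in vehicle, 154, 144 and 169 under VPA and 134, 118 and 51 under VPA + Rapamycin. It rose by 2.29 (SE 0.30, adjusted p = 0.000312). SERPINB9, an intracellular inhibitor of granzyme B, had 100, 102 and 162 counts in vehicle, 339, 359 and 372 under VPA and 286, 233 and 288 under VPA + Rapamycin and rose by 1.47 (SE 0.20, adjusted p = 0.000402). For both genes the raw count of every VPA library was at least 2 times that of any vehicle library. In normalized counts SERPINB9 fell just short of this, with 333 in the lowest VPA library and 168 in the highest vehicle library. SERPINI1, neuroserpin, is the brain inhibitor of the enzyme that PLAT encodes. It had 37, 52 and 54 counts in vehicle, 120, 80 and 145 under VPA and 123, 93 and 126 under VPA + Rapamycin. Its rise of 1.17 (SE 0.28, adjusted p = 0.00927) was lost without VPA library 3 (adjusted p = 0.0521).

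SERPINE2, protease nexin, stood at 3.29 ± 0.251 RPKM in vehicle and was not called, with a difference under VPA of -0.01 (SE 0.12). The non-inhibitory SERPINF1, which has neurotrophic activity, was not called and differed by -0.10 (SE 0.17). SERPINH1 differed by -0.20 (SE 0.16), with vehicle counts of 5280, 3208 and 2951, and was called in the same direction without vehicle library 3 (-0.35, adjusted p = 0.0317).

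SERPINB9 lies between SERPINB1 and SERPINB6 on the short arm of chromosome 6, all on the minus strand, with gaps of 45260 and 44879 bases. SERPINB1 had 248, 234 and 313 counts in vehicle, 254, 222 and 237 under VPA and 178, 195 and 180 under VPA + Rapamycin. SERPINB6 had 116, 129 and 170 counts in vehicle, 153, 132 and 146 under VPA and 115, 165 and 190 under VPA + Rapamycin. Under VPA their differences were -0.24 (SE 0.16) and -0.03 (SE 0.21), and neither was called. Of 6 pairs of tested members within 200 kb and with no other member between them, 4 had 1 member called under VPA. None had both called, where 32.1% of all genes tested were called. SERPINB9 was in more than 1 of these pairs, and MMP24 and MMP24OS overlap each other. SERPINB1 and SERPINB6 were not counted as a pair, as SERPINB9 lies between them. Whether neighbours differed from each other was not tested.

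The remaining 14 members that were tested in at least 1 comparison received no call in any main fit. They were ADAMTS6, ADAMTS8, ADAMTS12, ADAMTS14, ADAMTS15, ADAMTS16, ADAMTS19, ADAMTSL2, ADAMTSL3, ADAMTSL4, MMP23B, MMP25, SERPINA10 and SERPINF2, and under VPA their estimates ran from -0.60 for ADAMTS19 (SE 0.24, adjusted p = 0.0720) to 0.81 for MMP25 (SE 1.00, adjusted p = 0.572). ADAMTS12 was the most abundant of them, at 6.48 ± 0.828 RPKM in vehicle. MMP23B has a near-identical copy, MMP23A, and its reads could be split between them. MMP25 shares 35.2% of its exon bases with the more highly counted MMP25-AS1 on the other strand. Under VPA, ADAMTS15 was called without vehicle library 1 (adjusted p = 0.0137), and ADAMTS6 and ADAMTS19 were called without vehicle library 3 (0.0374 and 0.0451) and in the fit of all 9 libraries (0.0436 and 0.0437). ADAMTS15 was also called without vehicle library 1 in VPA + Rapamycin against vehicle (0.0166). ADAMTSL3 and SERPINF2 did not pass the count filter in VPA against vehicle.

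The second comparison asked which members changed when Rapamycin was added to VPA, and it shares the VPA libraries with the first. Of 51 members tested, 3 rose and 4 fell by the same test. This is 13.7% of the members, where 6.74% of all 17317 genes tested were called, 3.01% higher and 3.73% lower. The median log2 fold change of the members was -0.06, against 0.00 over all genes. ADAMTS10, MMP24 and TIMP3 rose, and ADAMTS3, ADAMTS20, PLAT and PLAUR fell. Normalized counts did not overlap for 20 of the 51 members, where 25.4% of all genes tested showed no overlap. Leaving out VPA library 1 left 1 member raised and 1 lowered, VPA library 2 left 1 and 2, and VPA + Rapamycin library 3 left 1 and 2. With all 9 libraries in 1 fit, 1 member rose, which was ADAMTS10, and 0 fell.

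ADAMTS10, which binds fibrillin microfibrils, was the member whose call passed all 11 alternative settings. It lies on chromosome 19 (8580242 to 8610735, minus strand). It had 391, 318 and 407 counts in vehicle, 364, 411 and 486 under VPA and 706, 721 and 546 under VPA + Rapamycin. Vehicle and VPA overlapped and all VPA + Rapamycin libraries were above both. ADAMTS10 rose by 0.67 over VPA (SE 0.11, adjusted p = 0.00165), and its difference between VPA and vehicle was 0.10 (SE 0.14, adjusted p = 0.635). ADAMTS20, a versican-cutting enzyme known for its role in neural crest-derived pigment cells, had 275, 241 and 228 counts in vehicle, 281, 239 and 276 under VPA and 160, 181 and 161 under VPA + Rapamycin. Vehicle and VPA again overlapped, and the VPA + Rapamycin libraries were lower than all others. It fell by 0.64 against VPA (SE 0.14, adjusted p = 0.00958), a call lost without VPA library 1 (adjusted p = 0.0540).

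The other 5 members called on adding Rapamycin had estimates of the opposite sign for VPA against vehicle, which share the same VPA libraries. ADAMTS3 fell by 0.93 (SE 0.18, adjusted p = 0.00497), where its estimate for VPA against vehicle was 1.32. PLAT fell by 0.47 (SE 0.12, adjusted p = 0.0270). The PLAT call was lost without VPA library 1 (adjusted p = 0.0953), VPA library 2 (0.109), VPA + Rapamycin library 2 (0.0825) or VPA + Rapamycin library 3 (0.101). PLAUR fell by 0.80 (SE 0.23, adjusted p = 0.0442), and all 6 fits that left out a library lost the call (adjusted p from 0.0519 to 0.134), as did DESeq2 (adjusted p = 0.0550). TIMP3 rose by 0.33 (SE 0.08, adjusted p = 0.0187) and lost its call without VPA library 1 (0.0964), VPA library 2 (0.0801) or VPA + Rapamycin library 3 (0.101). MMP24 rose by 0.88 (SE 0.25, adjusted p = 0.0409) and lost its call in 5 of 6 such fits, without any library but VPA 3 (adjusted p from 0.0556 to 0.163).

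**Figure D4:**
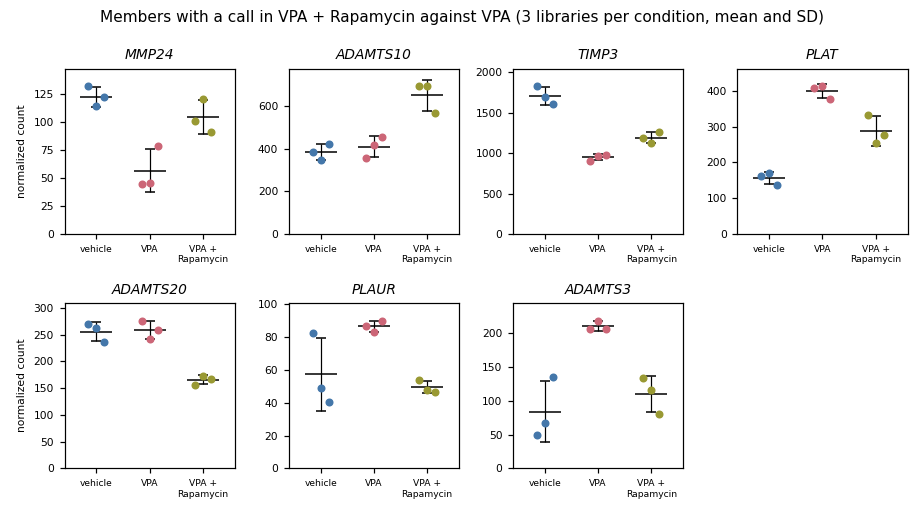
Normalized counts (linear axis from 0) of the 7 members called in VPA + Rapamycin against VPA, in each library of the 3 conditions, with the mean and SD of 3 libraries as bars. ADAMTS10 and ADAMTS20 have overlapping vehicle and VPA points and shifted VPA + Rapamycin points, and in the other 5 panels the VPA points do not overlap with either of the other conditions. In the PLAUR panel vehicle spans from below the VPA + Rapamycin points to just under the VPA points.

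The remaining members that VPA raised were not called on adding Rapamycin. MMP17 differed by 0.07 (SE 0.13), SERPINI1 by 0.02 (SE 0.22) and MMP2 by -0.16 (SE 0.10). ADAMTS17 differed by -0.49 (SE 0.28), MMP11 by -0.38 (SE 0.15) and ADAMTS13 by -0.14 (SE 0.11). The libraries of ADAMTS17 and MMP11 did not overlap with VPA, and those of ADAMTS13 did. MMP11 was called without VPA + Rapamycin library 2 (-0.52, adjusted p = 0.0455). SERPINB9 stood -0.38 from VPA (SE 0.13, adjusted p = 0.0824) without overlap between the libraries. MMP2 was called without VPA + Rapamycin library 1 (-0.32, adjusted p = 0.0283). SERPINA5 differed by -0.61 (SE 0.24, adjusted p = 0.148) and was called without VPA + Rapamycin library 1 (-0.86, adjusted p = 0.0437). TIMP1, which VPA lowered, differed by -0.08 (SE 0.12, adjusted p = 0.744). The mesenchymal markers fell in this comparison, with 6 of 11 tested called lower, where 3.73% of all genes were, and a list median of -1.32. Of the members raised by VPA, ADAMTS3 and PLAT were also called lower, while the others were not called and had the differences given above. The part of these cells in the members' values was not tested.

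The third comparison set VPA + Rapamycin against vehicle and shares its libraries with the other two. Of 51 members tested, 10 rose and 4 fell, or 27.5%, beside 19.0% of all 17383 genes tested (9.81% higher and 9.22% lower). The median log2 fold change was 0.12, against -0.00 over all genes. Normalized counts did not overlap for 17 of the 51 members, where 38.5% of all genes tested showed no overlap. PRSS35, MMP17 (1.37, SE 0.17, adjusted p = 0.000772), ADAMTS17 (2.55, SE 0.42, adjusted p = 0.00294) and ADAMTS10 (0.76, SE 0.14, adjusted p = 0.00446) led the members that rose. PLAT stood 0.88 above vehicle (SE 0.17, adjusted p = 0.00700) and SERPINB9 1.09 (SE 0.22, adjusted p = 0.00825). SERPINI1, SERPINA5, MMP2 and ADAMTS2 rose by 1.20, 1.67, 0.83 and 0.55, and MMP2 was not called by DESeq2 (adjusted p = 0.106). TIMP1 fell by 0.65 (adjusted p = 0.0125), ADAMTS20 by 0.62 (0.0197), SERPINB1 by 0.58 (0.0338) and TIMP3 by 0.52 (0.00874). The count of members lowered fell to 0 without VPA + Rapamycin library 1 and to 1 without vehicle library 2, VPA + Rapamycin library 2 or VPA + Rapamycin library 3, and the count raised fell to 6 without VPA + Rapamycin library 1. MMP24 (-0.23, SE 0.20), ADAMTS3 (0.39, SE 0.35) and PLAUR (-0.21, SE 0.32) were not called against vehicle, and ADAMTS3 was called without vehicle library 3 (0.92, adjusted p = 0.0316).

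**Figure D5:**
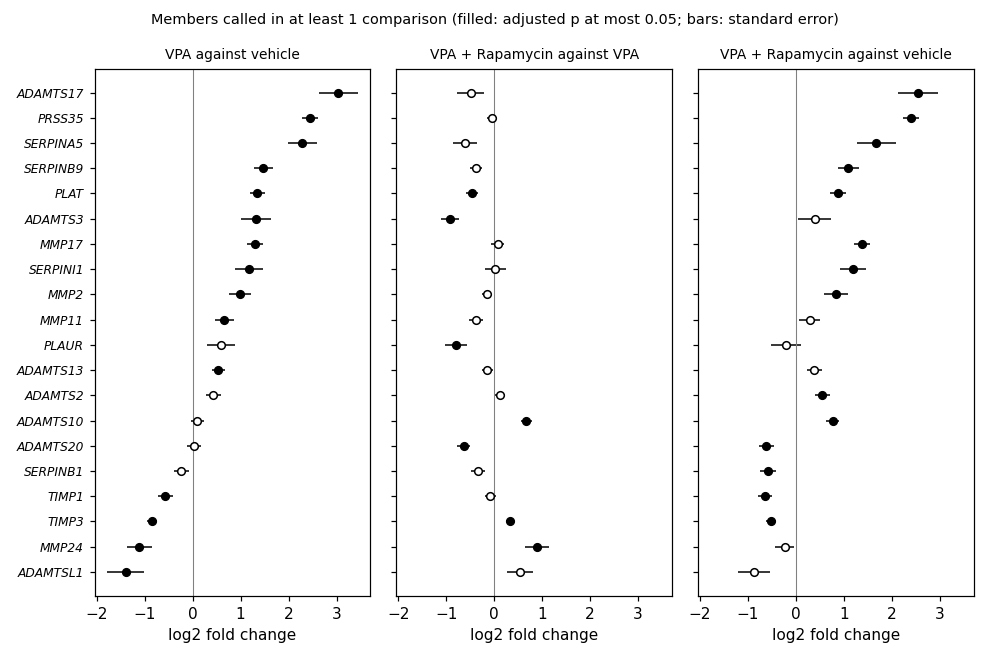
Log2 fold changes with their standard errors for the 20 members called in at least 1 comparison, in the 3 comparisons side by side, ordered by VPA against vehicle, with filled points for an adjusted p at most 0.05. PRSS35 sits at 2.45, -0.05 and 2.40, whereas ADAMTS10 sits at 0.10, 0.67 and 0.76.

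Other genes of the same pathways were taken from lists drawn up by function. Of 29 other extracellular and cell surface proteases tested, 12 rose and 2 fell under VPA, where 16.4% of all genes rose and 15.7% fell, with a median log2 fold change of 0.55 against -0.00 over all genes. ADAM33, a membrane metalloproteinase of mesenchymal cells, had 60, 32 and 76 counts in vehicle, 204, 179 and 291 under VPA and 68, 126 and 83 under VPA + Rapamycin. It rose by 1.92 under VPA (SE 0.28, adjusted p = 0.000623) and fell by 1.26 on adding Rapamycin (SE 0.22, adjusted p = 0.00165). The proprotein convertase PCSK5, the lysosomal cathepsin CTSB, the secreted serine protease HTRA1, the tolloid-like TLL2 and the disintegrin ADAM15 rose by 1.20, 0.61, 0.78, 1.47 and 0.85, and none of these 5 was called on adding Rapamycin. In that comparison 1 protease of the list rose and 3 fell, beside 3.01% and 3.73% of all genes.

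Of 14 other protease inhibitors tested, 4 rose and 1 fell under VPA, a share near the 32.1% of all genes called in either direction, and their median was -0.03. ITIH5, a heavy chain of the inter-alpha-trypsin inhibitor family that binds hyaluronan, had 11, 6 and 1 counts in vehicle, 261, 279 and 426 under VPA and 158, 231 and 139 under VPA + Rapamycin. Its log2 fold change under VPA was 5.64 (SE 0.41, adjusted p = 9.80e-06), and it fell by 0.85 on adding Rapamycin (SE 0.18, adjusted p = 0.00873). RECK, a membrane-anchored inhibitor of MMPs, had 424, 378 and 463 counts in vehicle, 306, 251 and 273 under VPA and 300, 335 and 355 under VPA + Rapamycin. RECK fell by 0.69 under VPA (SE 0.14, adjusted p = 0.00407), the direction that TIMP1 and TIMP3 took. The testican SPOCK3, the cystatin CST3 and the membrane Kunitz inhibitor SPINT1 rose by 1.33, 0.45 and 2.55. On adding Rapamycin 0 inhibitors of the list rose and 2 fell, beside 3.01% and 3.73% of all genes. Those 2 were ITIH5 and SPINT1, which fell by 1.23 (SE 0.33, adjusted p = 0.0328).

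Of 16 receptors and cofactors for plasminogen and serpins, 5 rose and 4 fell under VPA, beside 16.4% and 15.7% of all genes. S100A10, which with ANXA2 forms a plasminogen receptor at the cell surface, had 182, 138 and 89 counts in vehicle, 977, 761 and 829 under VPA and 433, 525 and 321 under VPA + Rapamycin. It rose by 2.58 (SE 0.21, adjusted p = 1.90e-05) and fell by 0.99 on adding Rapamycin (SE 0.13, adjusted p = 0.000156), and ANXA2 went the same ways by 0.83 and -0.48. Among those that fell were VLDLR, LRP8 and LRP1B, of a receptor family that takes up complexes of proteases and serpins among other ligands. VLDLR fell by 1.15, LRP8 by 0.79 and LRP1B by 2.32, whereas LRP1, which is named here as the best known clearance receptor of PLAT, differed by -0.01 (SE 0.11). None of VLDLR, LRP8 and LRP1B was called on adding Rapamycin, VLDLR being the closest of these (0.37, adjusted p = 0.0539). Plasminogen itself (PLG) had 1 to 9 counts in a library.

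Of 6 proteoglycan substrates tested, 4 rose under VPA and none fell, beside 16.4% and 15.7% of all genes. Brevican (BCAN), a hyalectan of neural matrix that ADAMTS enzymes cut, had 30, 25 and 44 counts in vehicle, 253, 256 and 250 under VPA and 136, 190 and 145 under VPA + Rapamycin. It rose by 2.86 (SE 0.23, adjusted p = 1.80e-05) and fell by 0.67 on adding Rapamycin (SE 0.15, adjusted p = 0.0133). Aggrecan (ACAN) rose by 1.62 and fell by 1.49, and neurocan (NCAN) rose by 0.66 with a difference of 0.11 on adding Rapamycin. COMP, a cartilage matrix protein that some ADAMTS enzymes cut, rose by 3.23 from 0 to 4 counts in a vehicle library. For every list the values are counts of calls and medians, and no test compared a list with other genes.

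Because the study turned on AP-1 and EGR transcription factors, promoter sequences of the members were searched for short motifs. RefSeq windows (GRCh38.p14, 250 bases before to 50 after the start) were found for 46 of the 67 members. The AP-1 motif TGAGTCA, on either strand, was in 3 of the 46 (6.52%) and in 4.92% of all 27305 windows, and the EGR motif GCGTGGGCG was in 1 (2.17%) and in 0.784% of all. PLAUR held both. It was called lower on adding Rapamycin in the main fit, a call that 2 of 11 alternative settings kept. SERPINB8 and SERPINB13 held the other AP-1 matches. SERPINB8 counts were 48, 59 and 46 in vehicle, 74, 80 and 89 under VPA and 58, 61 and 50 under VPA + Rapamycin, with no call in any comparison (adjusted p = 0.103 for VPA against vehicle and 0.216 on adding Rapamycin). The windows below read along the strand of the gene, with the motif, or its reverse complement for EGR, in capitals.
PLAUR AP-1, chr19:43670339-43670365, minus strand, 186 bases before the start: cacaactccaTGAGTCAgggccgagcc
PLAUR EGR, chr19:43670241-43670269, minus strand, 90 bases before the start: gagggggaggCGCCCACGCatctggggct
SERPINB8 AP-1, chr18:63970043-63970069, plus strand, 28 bases before the start: cgaacggttcTGAGTCAtctgccggaa

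No AP-1 or EGR match was in the windows of the 8 members raised by VPA that had one, among them PRSS35, ADAMTS17 and SERPINA5. The cyclic AMP response element TGACGTCA was in 1 member window, that of ADAMTS6, and in 1.98% of all windows. The GC box GGGCGG was in 67.4% of member windows and 44.6% of all, and the median GC content was 66.2% against 58.3%. The TATA motif TATAAA was in 7 member windows (15.2%, against 12.0% of all). Among the members raised by VPA with a window, SERPINB9 held it, at the usual distance before the start, and its window is shown for that reason. Some GC box matches overlap each other. The RefSeq starts of PLAUR and SERPINB8 lie inside the genes as the count tables annotate them, so the printed windows of both fall within those longer spans. The windows searched for SERPINA5, ADAMTS13 and MMP11, which VPA raised, also lie wholly inside the annotated genes, away from the annotated starts. A match describes these letters in this window only, and its absence says nothing about a factor's binding.
SERPINB9 TATA, chr6:2903324-2903349, minus strand, 30 bases before the start: gaccctgcggTATAAAagcggtgcct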

How the data were processed

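The deposited tables, 1 for each of the 3 pairs of conditions, held raw counts per gene, which the authors made from poly-A libraries and tested with DESeq2. HISAT2 2.0.5 and featureCounts 1.5.0-p3 are named in the submitters' processing notes. The strand setting and the treatment of reads shared between genes are not given in the sources used here. The tables also carried 18 size-factor-scaled and 18 FPKM columns, means and the authors' own fold changes and p-values, none of which were used.

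Members were found by gene name, and the members and lists were chosen with earlier results of these data known. All 67 had the same start and end in GENCODE 29 (GRCh38), and 23 share exon bases with another gene. Counts were tested in edgeR 4.0.16 (R 4.3.3) with TMM factors, filterByExpr and the quasi-likelihood F test, within each pair of conditions and over all genes that passed, with Benjamini-Hochberg adjustment and a threshold of 0.05. Standard errors are on the log2 scale. Normalized counts and RPKM used TMM factors over the 9 libraries and the deposited gene lengths. DESeq2 1.42.0, other size factors, no filter, all 9 libraries in 1 fit, the replicate number as a block and leaving out each library were the alternatives. The code was tested on simulated counts with known changes.

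Named members were TIMP1 to TIMP4, PLAT, PLAU, PLAUR, PRSS35, SERPINE2, SERPINF1, SERPINH1, SERPINI1, MMP2, MMP14, MMP15 and MMP16 whatever their values, and up to 25 members with the smallest adjusted p among those called in each comparison. At most 6 genes were named from each other pathway list, and exceptions are marked in the text. Of these, 1 named member and 1 gene of a pathway list are counted but not reported here by name. Total counts of 15290325 to 17417368 put the floor of 3 counts at 0.170 to 0.198 CPM. Replicates of a condition differed beyond sampling noise (chi-square per gene 4.53 to 35.0 over genes with at least 10 counts in the pair, the highest between vehicle libraries), so each counted as 1 sample. Of the marker lists, those for smooth muscle, skeletal muscle, endothelium, platelets and liver summed to below 30 CPM in every library, epithelium to 8.21 to 57.0 CPM, neural crest to 389 to 491 CPM, neural progenitors to 3067 to 3684 CPM and pluripotent cells to 195 to 444 CPM. Promoter windows came from RefSeq.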

Additional observations from a re-analysis of the deposited data

How the results depend on the processing

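No named member changed direction with a call under any alternative. For VPA against vehicle, leaving out 1 library at a time gave 8 to 16 members raised and 2 to 7 lowered, the lowest count lowered without vehicle library 2. For VPA + Rapamycin against VPA the same gave 1 to 3 raised and 1 to 5 lowered, and a fit of all 9 libraries gave 1 raised and 0 lowered, where DESeq2 gave 3 and 3. For VPA + Rapamycin against vehicle it gave 6 to 12 raised and 0 to 5 lowered, with 0 lowered without VPA + Rapamycin library 1. The cause was not tested, beyond the smaller number of libraries in these fits. Same-numbered libraries deviated together by correlations of -0.12 to 0.05, -0.05 to 0.08 and 0.07 to 0.25 in the 3 comparisons, which does not show that the numbers pair the samples. With the replicate number as a block, 11 members rose and 4 fell under VPA, 3 and 4 on adding Rapamycin, and 11 and 5 against vehicle. On adding Rapamycin the block ended the call of PLAUR (adjusted p = 0.0528) and made SERPINA5 a call (0.0445). Against vehicle it made ADAMTSL1 (0.0306) and ADAMTS15 (0.0414) calls. Same-numbered libraries share a code in the labels, which do not say what it marks, and the codes are not the clone names of the study. If the code marks a clone, the block fits compare conditions within clones and the main fits do not. Over the named members and all alternatives, 312, 296 and 295 values kept their side of the threshold in the 3 comparisons, 11, 27 and 28 lost a call and 7, 5 and 7 gained one. The 14 members that did not pass the count filter were not tested, and the smallest change that this depth could show was not measured.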
